A study of Mus musculus with 6 samples.

Results

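C/D box small nucleolar RNAs were taken as every gene of the deposited TPM table whose symbol begins with Snord followed by a digit, a rule that uses no measured value. It found 73 of the 24980 symbols listed. The libraries came from satellite cells, the stem cells of skeletal muscle, sorted by flow cytometry from the hindlimbs of C57BL6/J adults. The 3 KO libraries are labelled scERα KO, a genotype in which estrogen receptor α is targeted in satellite cells through tamoxifen-induced Cre, and the 3 WT libraries are labelled scERα WT. Both groups carry the same tamoxifen treatment, 10 mg in total, and neither the Cre driver nor whether a library stands for 1 mouse is given in the sources used here, so p-values measure the spread between libraries, which may be technical.

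C/D box snoRNAs are short nuclear RNAs that pair with a target RNA and direct the methyltransferase fibrillarin to methylate the ribose of a chosen nucleotide, in most cases in ribosomal RNA. Their short conserved C and D boxes bind the core proteins of the particle. Most vertebrate members are cut out of introns of host genes, many of which encode ribosomal proteins or other parts of the translation machinery, and a few are needed for the cleavage of ribosomal RNA precursors rather than, or as well as, for methylation.

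All 73 symbols matched 1 gene each in GENCODE vM21 (GRCm38), and RefSeq classes them as snoRNA; GENCODE gives Snord43 as a microRNA. Their annotated length was 64 to 238 nt, with a median of 80 nt, and their GC content 29.6% to 65.1%. The D box letters CTGA stood within the last 30 nt of 72 members and the C box letters TGATGA within the first 30 nt of 47, searched on the transcript's own strand. Both boxes were found in 46 members (63.0%), against 0 of 42 annotated H/ACA snoRNA transcripts (symbols beginning with Snora), the other main snoRNA class. Of the 73 members 71 lay inside another annotated gene on the same strand, in 50 hosts. In 43 of them the snoRNA was intronic in every host transcript that spanned it, and in 28 it overlapped an exon of at least 1 host transcript, so that reads of guest and host can be shared there.

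Sequences of the members on which the results turn are given in transcript direction as DNA letters from GENCODE vM21, with a C box TGATGA and a D box CTGA in capitals where those windows hold them. The most abundant member was Snord22 (U22), in an intron or, in 4 of 12 host transcripts, an exon of Snhg1 (chr19:8725866-8725991, plus strand). It was followed by Snord15b (chr7:99479563-99479707, minus strand) and Snord15a (chr7:99482785-99482932, minus strand), both within Rps3.
Snord22: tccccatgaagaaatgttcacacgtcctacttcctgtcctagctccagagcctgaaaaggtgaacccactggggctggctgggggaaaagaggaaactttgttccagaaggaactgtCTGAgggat
Snord15b: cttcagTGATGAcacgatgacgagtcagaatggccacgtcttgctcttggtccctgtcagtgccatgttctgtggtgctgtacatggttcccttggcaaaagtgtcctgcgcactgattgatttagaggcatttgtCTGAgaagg
Snord15a: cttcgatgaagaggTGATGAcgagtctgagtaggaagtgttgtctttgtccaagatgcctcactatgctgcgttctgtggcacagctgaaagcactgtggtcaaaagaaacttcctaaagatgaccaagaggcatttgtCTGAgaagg

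The members with the smallest p were Snord82, in an intron of the nucleolin gene Ncl (chr1:86356261-86356330, minus strand), and Snord37, in an intron of Eef2 (chr10:81178950-81179013, plus strand). Snord11, in an intron of Nop58 (chr1:59704790-59704873, plus strand), and Snord100, within Rps12 (chr10:23785750-23785823, minus strand), are shown as further members whose KO and WT values did not overlap, and Snord67, in an intron of Ckap5 (chr2:91596070-91596180, plus strand), as the member for which all KO values were the higher.
Snord82: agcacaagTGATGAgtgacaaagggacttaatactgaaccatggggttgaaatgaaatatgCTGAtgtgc
Snord37: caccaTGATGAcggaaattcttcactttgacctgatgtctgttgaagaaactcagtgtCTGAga
Snord11: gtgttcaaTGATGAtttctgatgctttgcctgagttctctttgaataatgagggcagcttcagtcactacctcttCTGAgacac
Snord100: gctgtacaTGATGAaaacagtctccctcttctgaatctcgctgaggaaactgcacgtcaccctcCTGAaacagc
Snord67: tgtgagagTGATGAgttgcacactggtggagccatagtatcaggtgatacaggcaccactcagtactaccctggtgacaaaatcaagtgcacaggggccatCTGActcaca

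Rpl13a carries 4 members, and they are shown because they share 1 host transcript and yet differ in level: Snord32a (chr7:45127382-45127464, minus strand), Snord33 (chr7:45126864-45126947, minus strand), Snord34 (chr7:45126601-45126670, minus strand) and Snord35a (chr7:45126346-45126435, minus strand). Snord34 and Snord35a do not hold the letters TGATGA in the window searched.
Snord32a: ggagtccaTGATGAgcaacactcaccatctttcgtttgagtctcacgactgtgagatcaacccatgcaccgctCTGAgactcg
Snord33: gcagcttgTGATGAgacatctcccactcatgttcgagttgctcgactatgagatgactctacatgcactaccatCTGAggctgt
Snord34: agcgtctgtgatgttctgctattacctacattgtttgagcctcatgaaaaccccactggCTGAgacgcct
Snord35a: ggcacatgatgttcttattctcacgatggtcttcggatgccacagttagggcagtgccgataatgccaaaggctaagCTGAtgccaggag

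Copies are shown where they bear on which locus a value belongs to. Snord14c (chr9:40803583-40803668, plus strand) and Snord14d (chr9:40803995-40804080, plus strand), both in Hspa8, match at 84 of 86 letters. Snord116l1 (chr7:59894620-59894713, minus strand) and Snord116l2 (chr7:59876933-59877026, minus strand), both in Snhg14, have the same sequence.
Snord14c: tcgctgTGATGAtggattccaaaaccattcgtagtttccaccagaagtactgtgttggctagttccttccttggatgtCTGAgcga
Snord14d: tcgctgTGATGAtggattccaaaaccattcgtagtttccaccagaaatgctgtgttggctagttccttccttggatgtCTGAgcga
Snord116l1: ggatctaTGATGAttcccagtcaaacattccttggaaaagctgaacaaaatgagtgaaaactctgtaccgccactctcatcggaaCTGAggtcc

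The values are TPM, a length-scaled abundance, and the precision of a single value is unknown since TPM keeps no depth. The listed TPM summed to 295306 to 334382 per library. Esr1, the gene of the targeted receptor, lay at 2.92, 3.69 and 3.87 TPM in KO libraries 1, 2 and 3, against 7.53, 6.96 and 6.94 TPM in WT, so all 6 libraries stood on the side of their label. The satellite cell markers fixed for this work (7 of 7 above 0 in every library, among them Pax7 and Myf5) summed to 299 to 385 TPM in KO and 273 to 395 TPM in WT. Schwann cell markers summed to 6.60 to 19.1 TPM in KO and 4.47 to 6.77 TPM in WT, and the erythroid ones to 29.0 to 331 TPM in KO and 11.9 to 161 TPM in WT. The part of such admixture in the results was not tested.

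Together the C/D box snoRNAs summed to 50110, 47867 and 34158 TPM in KO libraries 1, 2 and 3, against 48370, 48753 and 41408 TPM in WT libraries 1, 2 and 3. This was 11.6% to 15.6% of the listed TPM in KO and 12.96% to 15.2% in WT. The KO mean of 44045 ± 8636 TPM and the WT mean of 46177 ± 4134 TPM (SD, n = 3 each) gave a ratio of 0.954, a difference smaller than the spread between libraries. Without KO library 3 the ratio was 1.06. With median-of-ratios scaling it was 0.860, and with the protein-coding total made common 0.996. Taken as a share of small structured RNAs (RefSeq classes such as snoRNA and snRNA, the members included), the ratio was 1.02. In bulk RNA, fewer cells of a type and less RNA per cell cannot be told apart.

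A few members made up most of that sum. Snord22, Snord15b, Snord15a, Snord17 and Snord89 held 70.6% to 81.1% of the summed C/D level in KO and 70.3% to 78.3% in WT. Of the 73 members 30 had a mean over the 6 libraries of 100 TPM or more, 31 of 10 to under 100 TPM and 12 of under 10 TPM, with a median of 68.9 TPM. Across the 72 members above 0 in at least 1 library, length and mean level had a Spearman rho of 0.23 and GC content and mean level one of 0.34, given as descriptions. All points share the same libraries. Among the 5 members of 120 nt or longer the lowest mean was 223 TPM.

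**Figure D1:**
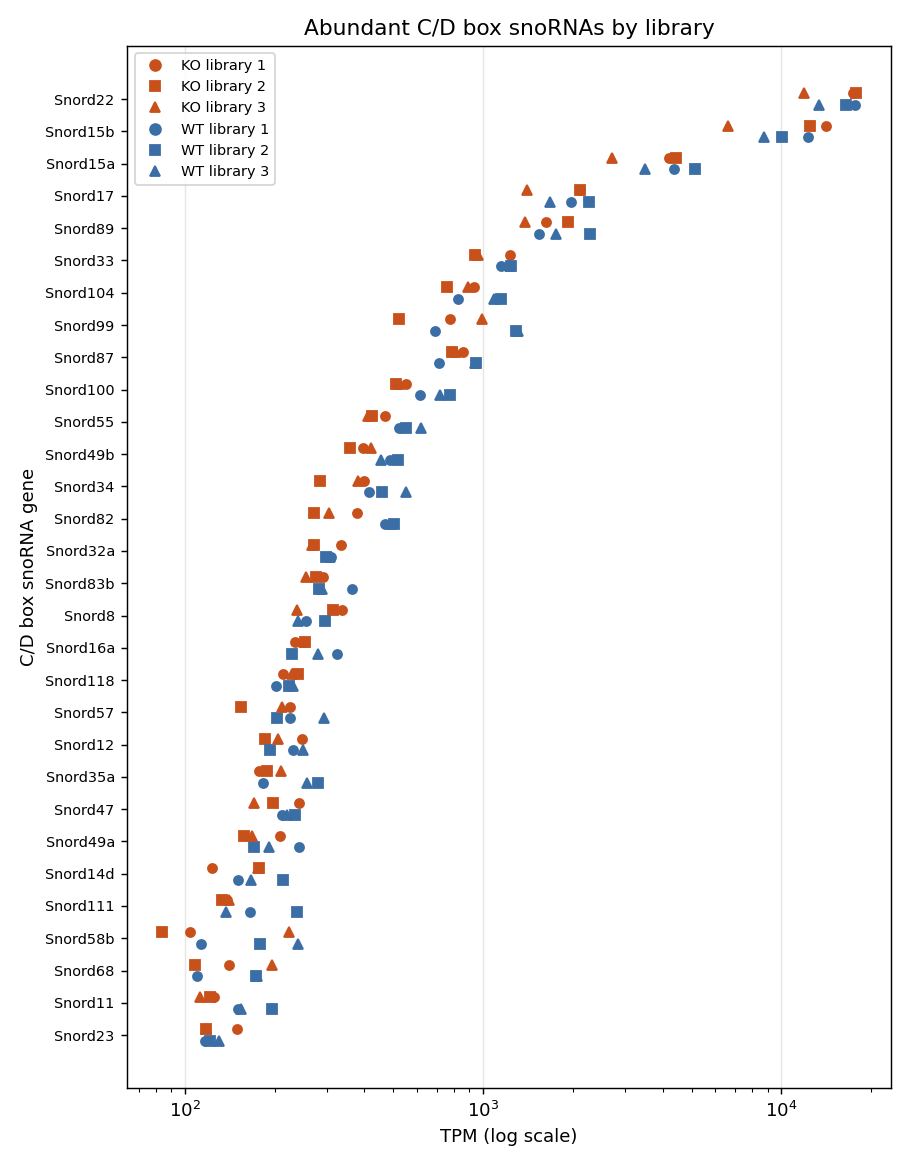
TPM (log axis) of the 30 C/D box snoRNAs with a mean of 100 TPM or more, 1 row a gene in order of mean level, with the 3 KO libraries above the 3 WT libraries in each row and 1 marker shape per library number. Snord22 and Snord15b stand at the top, and KO and WT points overlap in most rows.

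Snord22, or U22, is needed for maturation of the small ribosomal subunit RNA in Xenopus oocytes. It was listed at 17402, 17785 and 11958 TPM in KO libraries 1, 2 and 3, against 17684, 16523 and 13394 TPM in WT. The groups overlapped, and KO library 3 was the lowest of the 6 and WT library 3 the next. Snord15b, which with Snord15a guides methylation of the large subunit RNA in human cells, lay at 14166, 12525 and 6644 TPM in KO and at 12312, 10028 and 8778 TPM in WT. Its range within KO was wider than the difference between the group means of 11111 ± 3955 and 10373 ± 1792 TPM (SD, n = 3 each).

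Snord15a lay at 4217, 4445 and 2711 TPM in KO and 4377, 5145 and 3489 TPM in WT. For Snord17, a long guide of the large subunit RNA in human cells, the values were 2120, 2113 and 1404 TPM in KO and 1975, 2269 and 1675 TPM in WT. Snord89, for which no ribosomal RNA target is established, lay at 1627, 1932 and 1384 TPM in KO and 1539, 2282 and 1758 TPM in WT. KO library 3 was the lowest of the 6 libraries in all 5 of these members, and WT library 3 was the next lowest in 4 of them. The sum of small structured RNAs had the same order, but it includes the members and so is not independent of them. It was 104970 TPM in KO library 3 and 123395 TPM in WT library 3, against 129549 to 140270 TPM in the other libraries. These sums were 35.5%, 38.6% and 40.5% to 41.9% of the listed TPM. Whether the small structured RNAs other than the members had that order was not tested.

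The 5 most abundant members and the remaining 68 did not order the libraries alike. Summed, the 5 lay at 39531, 38799 and 24102 TPM in KO libraries 1, 2 and 3 and at 37888, 36246 and 29094 TPM in WT, with means of 34144 ± 8705 TPM in KO and 34409 ± 4676 TPM in WT and a ratio of 0.992. The remaining members summed to 10579, 9069 and 10057 TPM in KO and to 10482, 12506 and 12314 TPM in WT, with means of 9902 ± 767 TPM in KO and 11767 ± 1117 TPM in WT and a ratio of 0.841 (SD, n = 3 each). In that second sum KO library 1 overlapped WT library 1.

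**Figure D2:**
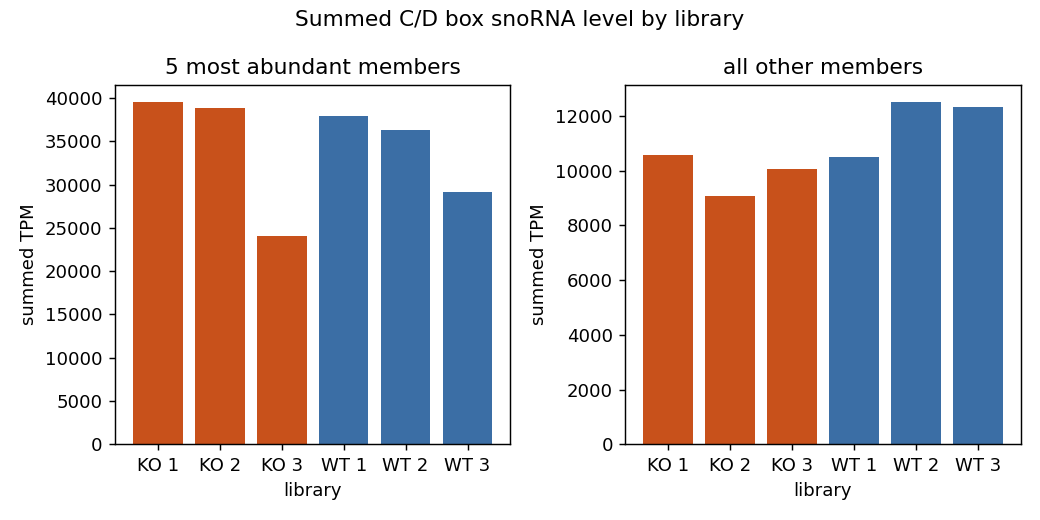
Summed TPM of the 5 most abundant C/D box snoRNAs (left) and of all other members (right) in each library, 1 bar a library, KO left of WT. KO library 3 is lowest at left with 24102 TPM, while at right KO library 2 is lowest with 9069 TPM.

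No C/D box snoRNA was called between KO and WT. Of the 73 members 69 reached 1 TPM in 3 or more libraries and were tested with limma on log2(TPM + 1), the p-values adjusted by Benjamini-Hochberg across the 8971 genes that met this filter; 0 passed 0.05, and the smallest adjusted p was 0.203. At the same rule 5 genes of all tested were called, 0.0557%, of which 0.0334% were higher and 0.0223% lower. An unadjusted p under 0.05 was found for 10 members lower in KO, where 2.66% of all genes tested were, and for 2 members higher in KO, where 7.89% of all genes were. With median-of-ratios scaling these were 14 members lower, where 4.85% of all genes were, and 2 higher, where 3.96% were. With quantile normalization they were 7 members lower and 5 higher, where 4.85% of all genes were lower and 4.10% higher. The tested members that were at 1 TPM or more in all 6 libraries numbered 62.

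Most members had a lower value in KO. The log2 difference was below 0 in 47 of 69 (68.1%) and above 0 in 22, with a median of -0.17, whereas 22.4% of all genes tested were below 0 and their median was 0.12. Each KO library lay below each WT library in 9 members, against 3.07% of all genes tested, and above them in 1 member, against 13.5% of all genes. Separation is easier with fewer libraries: KO lay below WT in 17 members without KO library 1, where 4.21% of all genes did, and in 18 without WT library 1, where 5.23% did. Without KO library 3 it lay above WT in 7 members, or 10.1%, and in 19.5% of all genes. The shares of all genes also turned with the scaling. With median-of-ratios scaling KO lay below WT in 13 members and 7.44% of all genes, and above it in 1 member and 6.58% of all genes. With quantile normalization it lay below WT in 7 members and 7.59% of all genes, and above it in 4 members and 6.42% of all genes. Scaling moved the median: median-of-ratios scaling brought the median of all genes to 0.01 and that of the members to -0.32, with 54 members lower and 15 higher. With quantile normalization the medians were -0.001 for all genes and -0.02 for the members, with 38 lower and 31 higher.

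Abundant members varied less. Of the 30 with a mean of 100 TPM or more, 26 had a lower value in KO, with log2 differences of -0.63 to 0.16, a median of -0.18 and a median standard error of 0.17. The 39 tested members of lower level split into 21 lower and 18 higher, with a median of -0.08 and a median standard error of 0.33. The highest library exceeded the lowest by a median of 1.53-fold in the abundant members and of 2.36-fold in the 33 others that were above 0 in every library.

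The library with the lowest value was a KO library in 49 of the 63 members above 0 in all 6 libraries (77.8%), and in 28.7% of the 8801 genes of that kind. KO library 2 was the lowest in 21 members (33.3%), against 3.78% of all genes, and KO library 3 in 18 (28.6%), against 8.95%. WT library 3 was the lowest in 5 members (7.94%), against 39.0% of all genes. The same KO library 2 was the highest of the 6 in 37.3% of all genes and in 5 members. WT library 2 was the highest in 24 members, or 38.1%, against 22.2% of all genes.

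**Figure D3:**
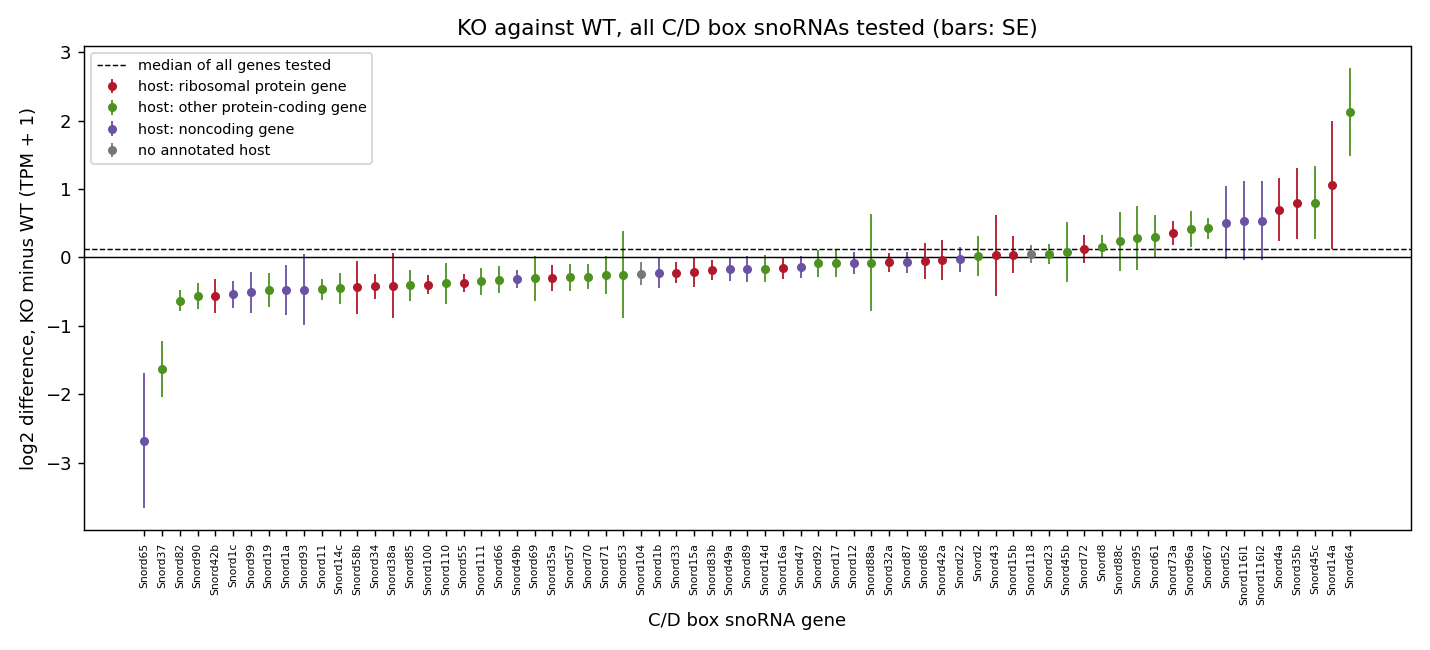
log2 difference, KO minus WT, on the log2(TPM + 1) scale for the 69 C/D box snoRNAs tested, in order of the difference, coloured by the kind of host gene, with standard errors as bars. The dashed line is the median of all genes tested, 0.12, and 47 members lie below 0.

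Among members whose KO values all lay below the WT values, Snord82 guides methylation of the small subunit RNA in human cells. It lay at 377, 271 and 304 TPM in KO libraries 1, 2 and 3, against 470, 503 and 492 TPM in WT, a ratio of means of 0.650. The log2 difference of -0.63 (SE 0.15) had a limma adjusted p of 0.203. Its host Ncl, which encodes the nucleolar protein nucleolin, did not share that direction, with 94.7 ± 21.0 TPM in KO and 84.7 ± 15.8 TPM in WT (SD, n = 3 each).

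Snord37, a guide of the large subunit RNA in human cells, lay at 7.66, 3.39 and 7.72 TPM in KO and at 16.4, 39.4 and 13.2 TPM in WT. The log2 difference was -1.64 (SE 0.41; limma adjusted p = 0.209), with WT library 2 well above the other WT libraries. Its host Eef2, the gene of a translation elongation factor, was at 226 ± 18.7 TPM in KO and 332 ± 51.2 TPM in WT (SD, n = 3 each). The host's own difference was -0.55, smaller in size than the guest's.

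Snord11 lay at 126, 122 and 112 TPM in KO and 150, 196 and 155 TPM in WT (log2 difference -0.47, SE 0.15; limma adjusted p = 0.306). Snord70, in another intron of the same host, had 89.4, 71.1 and 77.2 TPM in KO and 76.5, 110 and 106 TPM in WT, and its groups overlapped. The host of both, Nop58, encodes a core protein of the C/D particle itself and had a log2 difference of 0.17. In human cells Snord11 and Snord70 both guide methylation of the small subunit RNA.

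Snord100, which guides methylation of the small subunit RNA in human cells, lay at 553, 510 and 523 TPM in KO and 612, 776 and 714 TPM in WT. Snord55, a guide of the large subunit RNA in human cells, lay at 468, 423 and 412 TPM in KO and 523, 549 and 618 TPM in WT. The host of Snord100 is the ribosomal protein gene Rps12. The log2 differences were -0.40 for Snord100 and -0.37 for Snord55, with limma adjusted p of 0.344 and 0.357.

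Snord90, in an intron of Rc3h2, lay at 39.3, 26.9 and 30.4 TPM in KO and 56.4, 41.4 and 45.8 TPM in WT (log2 difference -0.56, limma adjusted p = 0.313). Its values of 56.4 and 41.4 TPM in WT libraries 1 and 2 are also those listed for Snord95, so they are uncertain. Snord49b lay at 395, 357 and 421 TPM in KO and 485, 519 and 456 TPM in WT (log2 difference -0.32; limma adjusted p = 0.449). Snord65 was listed at 0 in KO library 1 and at 9.50 and 24.9 TPM in KO libraries 2 and 3, against 34.1, 53.9 and 36.3 TPM in WT. Its log2 difference of -2.68 (SE 0.99; limma adjusted p = 0.371) rests in part on that 0. Snord49b, Snord49a and Snord65 share the noncoding host 2410006H16Rik, at 35.4 ± 5.35 TPM in KO and 52.4 ± 5.15 TPM in WT (SD, n = 3 each), while Snord49a overlapped, with 208, 158 and 168 TPM in KO and 242, 170 and 191 TPM in WT.

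The remaining member of the 9 was Snord34, described with its neighbours in Rpl13a. These neighbours differed up to 5.21-fold in mean level from each other. Snord33, a guide of the small subunit RNA in human cells, was the highest, at 1231, 937 and 958 TPM in KO and 1146, 1244 and 1228 TPM in WT. Snord34, a guide of the large subunit RNA, lay at 399, 283 and 381 TPM in KO and 415, 457 and 551 TPM in WT, with a log2 difference of -0.42 (SE 0.18; limma adjusted p = 0.454). KO library 2 was the lowest of the 6 in both.

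Snord32a had 335, 271 and 267 TPM in KO and 308, 297 and 307 TPM in WT, and Snord35a 177, 188 and 209 TPM in KO and 182, 280 and 257 TPM in WT. Their log2 differences were -0.07 and -0.30. The host Rpl13a, a ribosomal protein gene, lay at 278 ± 12.8 TPM in KO and 428 ± 58.9 TPM in WT (SD, n = 3 each), a log2 difference of -0.61. Snord32a, Snord33 and Snord35a are known from mouse and hamster cells as mediators of the response to lipotoxic stress, apart from ribosomal RNA methylation.

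Among the members with roles in ribosomal RNA cleavage, the KO and WT values of U8 and of each U14 copy overlapped. Snord118, or U8, is needed in Xenopus oocytes for maturation of the large subunit RNAs, and has no host here (chr11:69073427-69073561, plus strand). It lay at 213, 239 and 228 TPM in KO and 203, 223 and 230 TPM in WT, the smallest relative spread of the members named here. The log2 difference was 0.05 (SE 0.13; limma adjusted p = 0.884), and it was -0.10 under median-of-ratios scaling.

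U14 takes part in cleavage of the small subunit precursor in yeast. Snord14d, the most abundant copy, lay at 123, 177 and 176 TPM in KO and 151, 214 and 167 TPM in WT, and Snord14c at 76.9, 60.9 and 45.2 TPM in KO and 78.3, 67.9 and 103 TPM in WT. Since the sequences of Snord14c and Snord14d differ at so few letters, reads can be split between them and each value is uncertain. Snord14a, within Rps13, was listed at 0 in WT library 2, with 17.4, 6.78 and 12.5 TPM in KO and 11.7 and 15.9 TPM in WT libraries 1 and 3.

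Snord67, Snord8 and Snord7 guide methylation of the spliceosomal U6 RNA in human cells. Snord67 had 97.2, 102 and 97.8 TPM in KO libraries 1, 2 and 3, against 67.9, 88.7 and 66.1 TPM in WT, the 1 member for which all KO values exceeded all WT values. The log2 difference was 0.42 (SE 0.15; limma adjusted p = 0.363), and the host Ckap5 had one of 0.31. Snord8, in an intron of Chd8, lay at 336, 313 and 238 TPM in KO and 254, 296 and 240 TPM in WT, with groups that overlapped. Snord7 was listed at 4.62 TPM in WT library 3 and at 0 in all other libraries.

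Snord64, an orphan guide in the imprinted Snrpn region, had the largest positive log2 difference, 2.13 (SE 0.64; limma adjusted p = 0.270). It was listed at 2.52, 10.4 and 8.84 TPM in KO and at 0 in WT libraries 1 and 2 and 3.73 TPM in WT library 3, so KO library 1 lay below WT library 3. In the same region, Snord116l1 and Snord116l2 stood at 2.26, 2.21 and 0 TPM in KO and 0, 2.44 and 0 TPM in WT, with the same value for both in every library. Snord116 is known from its paternal deletion in Prader-Willi syndrome and is expressed mainly in neurons. Beyond these members the sequence is shared with 28 other annotated genes, so the values belong to no single locus, and the host Snhg14 was at 0.0933 ± 0.0321 TPM in KO and 0.08 ± 0.0436 TPM in WT (SD, n = 3 each). The annotation holds 17 Snord116 copies by name, of which 2 were analysed here. No copy named Snord113, Snord114 or Snord115 was found in the annotation or among the members.

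Other related copies differed in level in some sets and lay close in others. Snord1b and Snord1c, at 97.4% identity and in the same noncoding host 1810032O08Rik, lay at 59.6, 54.9 and 36.3 TPM for Snord1b and 36.7, 22.8 and 23.9 TPM for Snord1c in KO, against 47.2, 58.5 and 70.1 TPM for Snord1b and 36.2, 38.3 and 46.0 TPM for Snord1c in WT. Snord1a, the third of these large subunit guides, was far lower, at 0.94, 1.95 and 1.62 TPM in KO and 1.51, 1.47 and 5.50 TPM in WT. Snord88a and Snord88c shared 94.4% of their letters and had means over all libraries of 9.08 and 10.9 TPM. Each ranged widely within both groups, Snord88a from 3.80 to 12.9 TPM in KO and from 2.77 to 26.2 TPM in WT. Reads can be split between copies this alike, also between Snord1b and Snord1c, so each of these values is uncertain. Snord42a, Snord42b and Snord4a in Rpl23a had log2 differences of -0.04, -0.56 and 0.70, and all overlapped.

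Other small subunit guides of human cells, Snord16a, Snord57, Snord66 and Snord93, had log2 differences of -0.16, -0.29, -0.33 and -0.47. Large subunit guides Snord104, Snord99, Snord87, Snord12, Snord47 and Snord111 had ones of -0.24, -0.51, -0.07, -0.08, -0.14 and -0.35. Snord99 lay at 776, 521 and 988 TPM in KO and 691, 1286 and 1308 TPM in WT. The KO and WT values overlapped in each of these 10 members.

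Of the 4 members that were not tested, Snord98 was listed at 0 in all 6 libraries and Snord123 at 2.49 TPM in WT library 2 only. Snord91a was listed at 0.70, 0 and 1.57 TPM in KO and at 0 in all 3 WT libraries. The other was Snord7. A listed 0 in a table without counts can be a failed estimate as well as a low level.

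Guest snoRNAs and hosts are made from the same primary transcript, which allows their differences to be set side by side. Over the 63 guest and host pairs with both genes tested, from 43 hosts, the log2 differences had a Pearson r of 0.003 and a Spearman rho of -0.10, given as a description, since guests of 1 host share its value and all pairs share the libraries. The signs were the same in 35 pairs. The guest lay above the host TPM in 37 pairs, and the 2 levels had a Spearman rho of 0.19.

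The guests' medians lay close together across kinds of host, while the hosts' medians did not. Ribosomal protein genes were taken by symbol, Rpl or Rps followed by a digit, so Rack1 is among the other protein-coding genes. Guests of ribosomal protein genes had a median log2 difference of -0.16 over 21 members, those of other protein-coding genes -0.21 over 30 and those of noncoding genes -0.17 over 16. Their tested hosts had medians of -0.58 over 13 ribosomal protein genes, 0.12 over 23 other protein-coding genes and -0.05 over 9 noncoding genes. In all 13 ribosomal protein hosts the 3 KO libraries lay below the 3 WT libraries, where 3.07% of all genes tested did so. KO also lay below WT in 3 of the 23 other protein-coding hosts and in 4 of the 9 noncoding hosts.

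Every one of the 21 guests of ribosomal protein genes had a log2 difference above that of its host, by 0.03 to 1.64 with a median of 0.42. The hosts are themselves among the lowest genes of this contrast, at -0.65 to -0.43, and 97.2% of all genes tested lay above the highest of them. The 21 guests come from 13 hosts. In the 13 guests that are intronic in every host transcript the median was 0.40, and in the 8 that overlap an exon of a host transcript 0.48. In the 42 other pairs the guest lay above the host in 15, with a median of -0.22. With quantile normalization 18 of the 21 guests, and with library weights 20, lay above their host. The difference between the kinds of host was not tested.

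**Figure D4:**
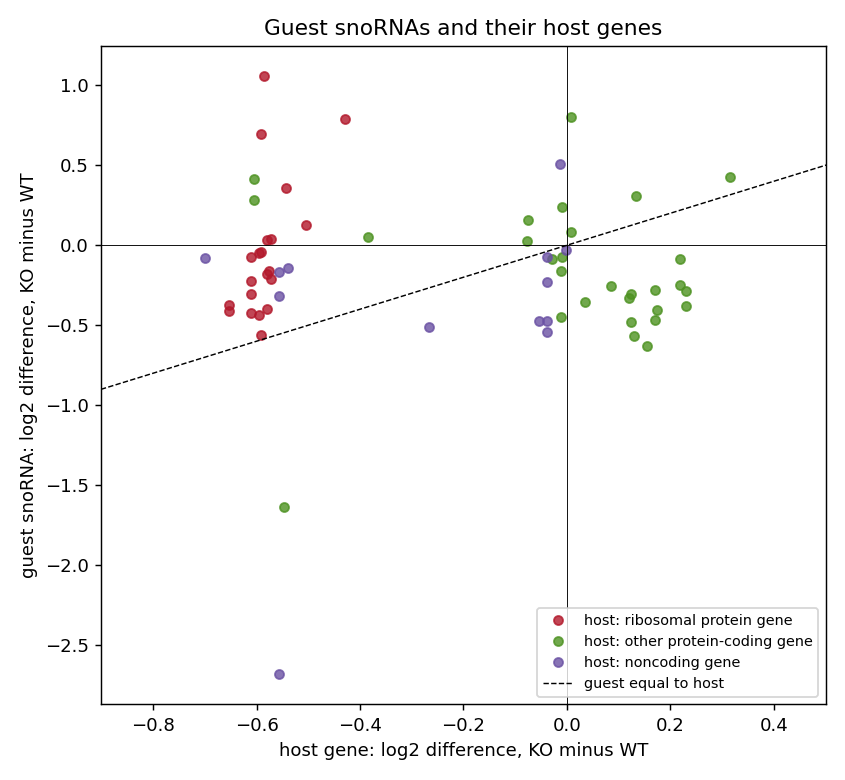
log2 difference, KO minus WT, of each guest snoRNA (vertical) against that of its host gene (horizontal) for 63 pairs, coloured by the kind of host, with the line of equal difference dashed. All 21 guests of ribosomal protein genes lie above the line, and their hosts lie between -0.65 and -0.43.

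Single pairs show the range. Snord95 and Snord96a, in Rack1, the gene of a small subunit protein, lay at 60.9, 91.3 and 22.1 TPM for Snord95 and 74.3, 35.2 and 58.0 TPM for Snord96a in KO, against 56.4, 41.4 and 28.9 TPM for Snord95 and 41.8, 45.9 and 32.8 TPM for Snord96a in WT. The log2 differences were 0.29 for Snord95 and 0.42 for Snord96a, and that of Rack1 was -0.60. In WT libraries 1 and 2 the table lists Snord95 and Snord90 at the same values; the cause was not tested. Snord12 in the noncoding gene Zfas1 had -0.08 against -0.70 in the host, and Snord47 in Gas5, a noncoding host of many C/D snoRNAs, -0.14 against -0.54. For Snord15b and Snord15a in Rps3 the differences were 0.04 and -0.21, against -0.57 in the host; that of Snord15b was -0.11 under median-of-ratios scaling.

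The genes of the C/D particle and its making were taken from a fixed list of 29 symbols, of which 27 are in the table and 25 were tested. By limma 0 were called (smallest adjusted p 0.275), where 0.0557% of all genes tested were. An unadjusted p under 0.05 was found for 1, higher in KO, where 7.89% of all genes were higher and 2.66% lower. Of the 25, 18 had a higher and 7 a lower value in KO, where 22.4% of all genes tested were lower. Their median log2 difference was 0.10, beside 0.12 for all genes tested. The core protein genes lay at 25.7, 38.7 and 123 TPM in KO for Fbl (fibrillarin), Nop56 and Nop58, and at 24.0, 33.1 and 110 TPM in WT, given as means of 3 libraries. Xpo1, which encodes an export receptor that also carries snoRNA precursors, had the smallest p, at 7.40 TPM in KO and 5.17 TPM in WT on average (log2 difference 0.44; limma adjusted p = 0.275). Ruvbl2, an ATPase of the assembly machinery, was at 2.08 TPM in KO and 2.76 TPM in WT on average (limma adjusted p = 0.499). It was the 1 gene of the list with KO values all below WT, where 3.07% of all genes were. KO values lay all above WT in 1 gene of the list, where 13.5% of all genes did. Pih1d1 and Phax had log2 differences of 0.32 and 0.19, the U3 protein gene Rrp9 0.34 and the poly(A) polymerase gene Tent4b 0.16, with limma adjusted p of 0.600 to 0.690.

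The other small RNA classes that guide modification were set beside the C/D members. Of 34 H/ACA snoRNAs tested, which guide pseudouridylation, 25 had a lower value in KO, with a median log2 difference of -0.14. Of 9 Cajal body RNAs 7 did, with a median of -0.34, and of all genes tested 22.4% did. Each KO library lay below each WT library in 5 H/ACA and 2 Cajal body RNAs, where 3.07% of all genes did. Above WT lay 0 of either class, where 13.5% of all genes did. By limma 0 of either class were called, where 0.0557% of all genes tested were. The C/D median was -0.17, and the differences between the classes were not tested.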

How the data were processed

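RNA-seq was done on 6 libraries, 3 KO and 3 WT. The authors deposited TPM per gene symbol. Per the labels' protocols, total RNA came from a Qiagen RNeasy column kit; columns of that kind can retain short RNAs poorly, and what part of the snoRNAs they kept was not tested. Tools listed in the submitters' processing notes, without roles, are kallisto, Trimmomatic 0.33, CASAVA and FastQC; builds listed there are mm10 and GRCm38; strandedness, size selection, annotation and the step from transcripts to genes are not given in the sources used here. TPM divides by transcript length, and for RNAs this short the divisor depends on the fragment lengths assumed. Reads of a mature snoRNA and of the unspliced host cannot be told apart.

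In R 4.3.3, limma 3.58.1 was fitted to log2(TPM + 1) of the 8971 genes that reached 1 TPM in 3 or more of the 6 libraries (eBayes with a trend, two-sided, Benjamini-Hochberg over all genes, threshold 0.05). Fold changes on this scale understate those of low genes. The procedure was tested on simulated data. Identity between copies came from global alignment in Biopython 1.88, and figures from matplotlib 3.10.9. Hosts are GENCODE vM21 genes that contain a member on the same strand, of those in the table the first. Coordinates are 1-based. Groups came from the labels. Members, lists, settings and the naming rule (highest level, smallest p in each direction, copy clusters, cleavage roles, hosts with 3 or more tested guests) were chosen with earlier results of these data known; other named members were chosen after their values were seen. A count model was not used, as TPM carries no depth. Alternatives were other pseudocounts, filters, scalings, eBayes settings, library weights and leaving out each library. The result for 1 host gene is not reported here.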

Additional observations from a re-analysis of the deposited data

How the results depend on the processing

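Over 18 alternatives 0 C/D box snoRNAs were called in either direction, and the smallest adjusted p of a member by limma ranged from 0.0573 (library weights) to 0.390 (no filter). Members lower in KO numbered 38 to 54. Of 697 alternative values of the 39 members named by rule, 664 kept direction and side of the threshold and 33 reversed. TPM keeps no depth, so the precision of low values is unknown. No paired analysis was run, since the libraries' title numbers are all different and name no pairs. Whether any libraries are paired is not known. The library numbers 1 to 3 used here only name the libraries in accession order.

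All genes called higher in KO, 3 in the reported analysis, numbered 0 with a pseudocount of 0.1, with no filter and with a mean TPM of 1 or more, 1 with TPM of 5 or more in 3 libraries, median-of-ratios scaling, quantile normalization, haemoglobin and ribosomal RNA genes removed or a common protein-coding total, 17 with robust eBayes and 53 with library weights. Genes called lower, 2 in the reported analysis, numbered 0 with a pseudocount of 5, no filter, a mean TPM of 1 or more, quantile normalization or the protein-coding total, 1 with haemoglobin and ribosomal RNA genes removed, 16 with robust eBayes and 27 with library weights. Members with all KO above all WT values, 1 as reported, numbered 4 with quantile normalization, where 6.42% of all genes did so, 2 with haemoglobin and ribosomal RNA genes removed, where 20.2% did, and 2 with the protein-coding total, where 25.8% did. The members' median, -0.17, was -0.32 with median-of-ratios scaling and -0.020 with quantile normalization. The causes were not tested.

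Reversed values with quantile normalization were 0.053 for Snord104, 0.020 for Snord14d, 0.072 for Snord17, 0.036 for Snord22, 0.31 for Snord32a, 0.14 for Snord33, 0.056 for Snord49a and 0.15 for Snord87. With median-of-ratios scaling they were -0.10 for Snord118 and -0.11 for Snord15b, with library weights 0.054 for Snord14d, -0.32 for Snord15b, 0.16 for Snord42a, -0.13 for Snord45c and 0.10 for Snord87, with the protein-coding total 0.043 for Snord22 and 0.025 for Snord42a, and with haemoglobin and ribosomal RNA genes removed 0.0084 for Snord22. Guests of ribosomal protein genes above their host, an alternative chosen after seeing the data, numbered 18 with quantile normalization and 20 with library weights.

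Leaving out each library in turn gave 0 to 4 genes called higher and 0 to 2 lower, 10 to 18 members with KO below WT, beside 3.77% to 6.16% of all genes, and 2 to 7 members with KO above, beside 15.8% to 36.8% of all genes. The 7 above came without KO library 3, where 19.5% of all genes lay above. The members' median was -0.20 to -0.09, the ratio of summed TPM 0.888 to 1.06, the highest without KO library 3, and 19 to 21 guests lay above their host. The ranges that crossed 0 were -8e-05 to 0.10 for Snord118, -0.23 to 1.81 for Snord14a, -0.27 to 0.0075 for Snord14d, -0.36 to 0.015 for Snord15a, -0.17 to 0.37 for Snord15b, -0.20 to 0.11 for Snord17, -0.14 to 0.16 for Snord22 and -0.35 to 0.16 for Snord42a.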
